A study of Tupaia belangeri chinensis with 36 samples.

Results

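The let-7 and miR-98 microRNA family was followed through the male reproductive tract of the Chinese tree shrew, Tupaia belangeri chinensis, in the testis and in the first and last segments of the epididymis, called caput and cauda. Its members were taken by name from the deposited table of mature miRNA counts: every row called let-7 with 1 letter and the 5p arm (let-7a, let-7b, let-7c, let-7d, let-7e, let-7f, let-7g and let-7i), together with miR-98-5p. These are 9 of the 1210 rows of the table, of which 491 carry mouse names. The names are those of mouse miRNAs that the tree shrew reads were assigned to, and the letter alone is used below for the 5p arm.

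Tissues came from sexually mature males aged 1.5 to 2 years, taken either in the reproductive season (R, April 2024) or in the non-reproductive season (NR, December 2023). Nothing in the labels points to any allele or agent. Season and tissue are the only differences between groups that the labels name, and season cannot be told apart from the date of collection. Small RNA was sequenced as single reads of 50 nt in 18 libraries, of which 16 hold measured values. These were 3 TESTIS-R, 2 TESTIS-NR, 3 CAPUT-R, 2 CAPUT-NR, 3 CAUDA-R and 3 CAUDA-NR libraries. Replicates are described as biological, but the labels do not tie a library to an animal, so libraries of different tissues may share an animal.

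let-7 was first described as a timing gene of the nematode Caenorhabditis elegans. Its relatives in mammals share a seed, the stretch near the 5′ end that pairs with target messages, and are known to repress messages such as Lin28a, Hmga2 and Ras genes. LIN28 proteins in turn block the maturation of let-7 precursors, and in mouse LIN28A marks undifferentiated spermatogonia. In the mouse epididymis, let-7 miRNAs are known from the epithelium, from the vesicles it releases and from sperm.

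Counts assigned to miRNAs ranged from 2166152 to 14756858 per library, and levels are given as CPM, a member's counts scaled by that total. Every testis library (2166152 to 4800500 counts) was shallower than every epididymal library (6528407 to 14756858 counts). Depth and tissue therefore go together in each comparison of testis with epididymis. Summed over 5 epithelial miRNAs (miR-200a, miR-200b, miR-200c, miR-141 and miR-429), levels were 201 to 3300 CPM in testis libraries, 87098 to 116976 CPM in caput libraries and 61476 to 94722 CPM in cauda libraries. The 4 measured miRNAs of germ cells and ciliated cells (miR-34b, miR-34c, miR-449a and miR-449b) summed to 5610 to 7808 CPM in the 3 TESTIS-R libraries, but to 340 CPM in TESTIS-NR 1 and 4592 CPM in TESTIS-NR 3; miR-449b was at 0 in 14 of the 16 libraries. TESTIS-NR 1 therefore stood apart from the other testis libraries, within the range of the caput (317 to 732 CPM). Smooth muscle miRNAs (miR-143 and miR-145a) summed to 5072 to 11948 CPM in testis, 5018 to 10694 CPM in caput and 22258 to 38298 CPM in cauda libraries. In such whole tissues, fewer cells of a type and less of a miRNA per cell cannot be told apart.

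The family made up a small share of the miRNA counts in all 16 libraries, between 0.175% and 0.684%. Its summed level was 5054, 4493 and 2504 CPM in TESTIS-R and 3464 and 1747 CPM in TESTIS-NR. It was 4386, 6836 and 4523 CPM in CAPUT-R and 3903 and 3876 CPM in CAPUT-NR, and in the cauda 5161, 3890 and 4581 CPM in CAUDA-R, against 6278, 5519 and 5632 CPM in CAUDA-NR. By tissue the mean was 3453 ± 1365 CPM in testis (SD, n = 5), 4705 ± 1226 CPM in caput (SD, n = 5) and 5177 ± 842 CPM in cauda (SD, n = 6), and the 3 tissues overlapped. The place of the caput depends on the scale. The log2 difference of the group-averaged sums, caput minus cauda, was -0.19 with library totals and 0.20 with trimmed-mean (TMM) library sizes, which set a library's scale by its less variable miRNAs.

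Within the testis, the 2 libraries with the least of the family also had the least of the epithelial miRNAs. TESTIS-R 1, TESTIS-R 2 and TESTIS-R 3 had 2112, 744 and 201 CPM of the epithelial list, and TESTIS-NR 1 and TESTIS-NR 3 had 3300 and 271 CPM. TESTIS-NR 1, with the most of that list, had a family sum of 3464 CPM, under TESTIS-R 1 (5054 CPM) and TESTIS-R 2 (4493 CPM). For 5 of the 9 members (let-7b, let-7c, let-7e, let-7i and miR-98), TESTIS-R 3 and TESTIS-NR 3 were the 2 lowest testis libraries. For let-7a, let-7f and let-7g these were TESTIS-NR 1 and TESTIS-NR 3, and for let-7d TESTIS-R 1 and TESTIS-R 2. How many of all miRNAs were lowest in TESTIS-R 3 and TESTIS-NR 3 was not counted. The part of the epithelial trace in the testis values was not tested.

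let-7f was the most abundant member in 15 of 16 libraries, with let-7i above it in TESTIS-NR 1 alone. Together let-7f, let-7i, let-7a, let-7b and let-7c held 97.6 ± 0.46% of the family's counts (SD, n = 16). let-7e and let-7g always took ranks 6 and 7, and let-7d and miR-98 ranks 8 and 9. Levels of different members rest on reads that differ little in sequence and on adaptor ligation, which is known to favour some ends, so the order among members carries that uncertainty. The files show that near-identical names can share reads. The rows of let-7a-1-3p and let-7c-2-3p, the passenger arms of 2 family genes, held the same counts in 16 of 16 libraries (10 to 273 counts). No 5p pair of the family was equal in this way, but the split between members as close as let-7b and let-7c is uncertain. Outside the family, miR-101c had counts at 99.98% to 99.99% of those of miR-101a-3p, and both rows enter the library totals. Without miR-101c in the totals, the mean family sum was 4990 CPM in TESTIS-R and 5857 CPM in CAPUT-R. With miR-101c it was 4017 and 5248 CPM. The log2 difference of the sums, testis minus caput, was -0.40 without miR-101c and -0.54 with it.

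**Figure D1:**
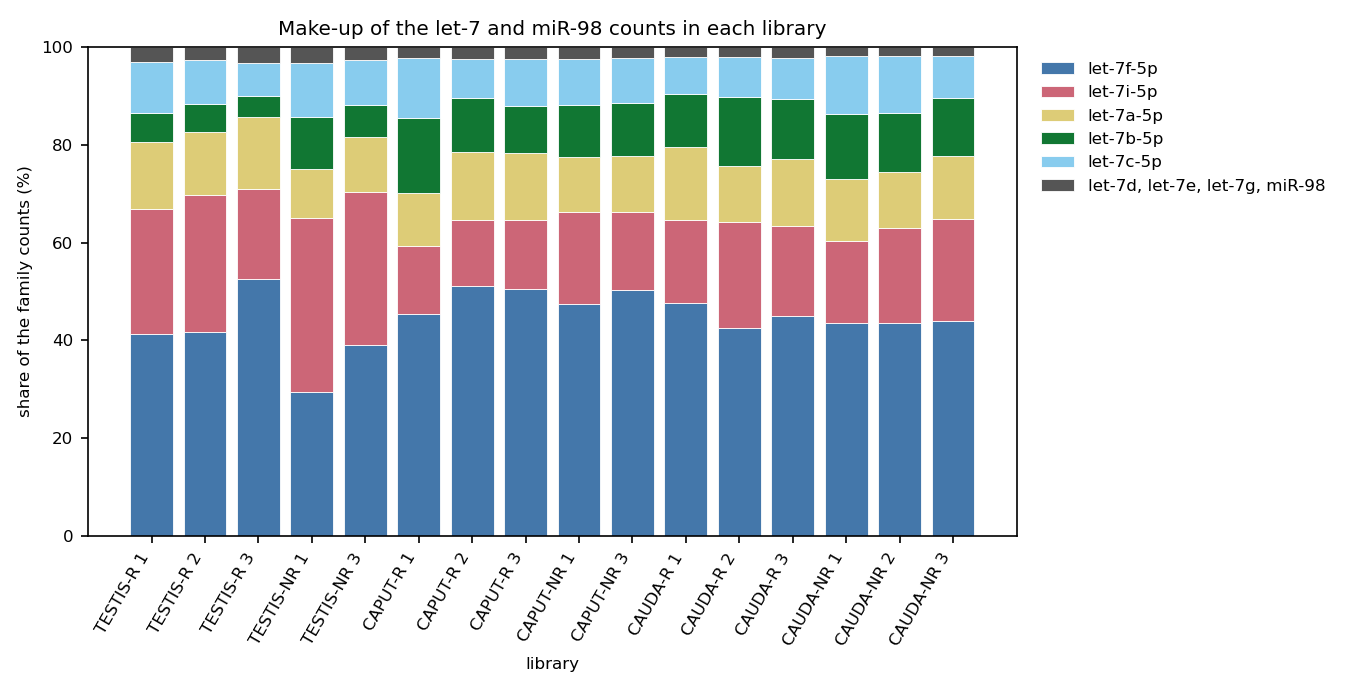
Share of the family's counts (%, vertical axis) held by each member in each of the 16 measured libraries (horizontal axis), stacked to 100%; the 4 scarce members are drawn as 1 block. let-7f is the largest block in every library but TESTIS-NR 1, and let-7i takes 27.8% on average in testis libraries, against 15.3% in caput and 19.0% in cauda libraries.

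The make-up of the family differed between testis and epididymis, a comparison that does not depend on how libraries are scaled. let-7i, which has a gene of its own in mouse, held 27.8 ± 6.4% of the family in testis (SD, n = 5), against 15.3 ± 2.2% in caput (SD, n = 5) and 19.0 ± 2.0% in cauda (SD, n = 6). Its lowest testis share, 18.4% in TESTIS-R 3, lay within both epididymal ranges. let-7g, likewise a lone gene in mouse, held 1.48 ± 0.36% in testis, against 0.544 ± 0.088% in caput and 0.718 ± 0.084% in cauda. Every testis library had a larger let-7g share (1.17% to 1.92%) than every caput library (0.446% to 0.626%) and every cauda library (0.583% to 0.808%).

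let-7b moved the other way, at 6.62 ± 2.43% of the family in testis, 11.5 ± 2.2% in caput and 12.4 ± 1.1% in cauda (SD, n = 5, 5 and 6), with TESTIS-NR 1 (10.7%) as the 1 testis library within the caput range (9.75% to 15.4%) and none within the cauda range (10.9% to 14.1%). The level of let-7c, whose mouse gene copies include 1 beside let-7b, was 1.03 to 1.78 times that of let-7b in the 5 testis libraries. In the epididymis that ratio was 0.718 to 0.969 in caput and 0.580 to 0.966 in cauda libraries, so the testis did not overlap with either segment. let-7g stood to let-7f as 0.0307 to 0.0442 in testis, 0.00942 to 0.0124 in caput and 0.0133 to 0.0175 in cauda libraries, 3 ranges that do not touch. let-7a kept nearly the same mean share in all 3 tissues, 12.5 ± 1.8% in testis, 12.2 ± 1.4% in caput and 12.8 ± 1.3% in cauda. So did let-7c, at 9.34 ± 1.63% in testis, 9.63 ± 1.52% in caput and 9.35 ± 1.90% in cauda. Within the testis, let-7a held 13.0% to 14.7% in TESTIS-R and 10.1% to 11.2% in TESTIS-NR libraries. These shares are descriptions, since no test was made of a share.

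Tissue differences of single members were tested over both seasons with season in the model, by edgeR's quasi-likelihood test on the counts with TMM scaling and Benjamini-Hochberg adjustment over all miRNAs tested; a call is an adjusted p under 0.05. In testis against caput, 4 of 9 members fell (let-7a, let-7b, let-7d and let-7f) and 0 rose, where 18.2% of the 677 miRNAs tested were called lower and 16.5% higher. In testis against cauda the same 4 names were called lower and 0 higher, with 18.1% of 713 miRNAs called lower and 18.0% higher. Both comparisons use the same testis libraries. The members' median log2 difference was -1.02 against caput, where the median of all miRNAs tested was 0.40, and -0.70 against cauda, where it was 0.47. With library totals the medians were -0.48 for the members and 1.00 for all miRNAs against caput, and -0.50 and 0.68 against cauda. Against caput the calls over all miRNAs were then 153 higher and 81 lower, where TMM sizes gave 112 higher and 123 lower, and the members called lower were let-7b, let-7d and let-7f. Markers of other cells moved with both comparisons: 5 of 5 epithelial miRNAs were called lower in testis than in caput and than in cauda, and of 6 leukocyte miRNAs (miR-142a-3p, miR-142a-5p, miR-146a, miR-150, miR-155 and miR-223) 4 were called lower than in caput and 5 than in cauda. The leukocyte sums were 501 to 1594 CPM in testis, 1135 to 3132 CPM in caput and 2096 to 8919 CPM in cauda libraries, with miR-150 at 0 in 3 testis libraries. Against cauda, 4 of 4 striated muscle and 2 of 2 smooth muscle miRNAs were called lower in testis, and against caput 1 of 4 and 1 of 2. Of 3 erythrocyte miRNAs (miR-451a, miR-144 and miR-486a), 1 was called lower in each comparison. Of the 3 germ and ciliated cell miRNAs tested, 3 were called higher than in caput and 2 than in cauda. The part of these markers in the let-7 differences was not tested.

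let-7f, made in mouse from genes beside let-7a, let-7d and miR-98, had 2085, 1875 and 1318 CPM in TESTIS-R and 1016 and 684 CPM in TESTIS-NR. It had 1990, 3492 and 2285 CPM in CAPUT-R, 1848 and 1953 CPM in CAPUT-NR, 2460, 1653 and 2063 CPM in CAUDA-R and 2736, 2405 and 2471 CPM in CAUDA-NR. On this scale the 2 highest testis libraries overlapped with both segments and the other 3 lay below all epididymal libraries. Its log2 difference was -1.37 ± 0.23 (SE; edgeR adjusted p = 0.00197) in testis against caput and -1.01 ± 0.27 (adjusted p = 0.0151) in testis against cauda. The call against cauda was lost in 4 of 21 alternatives. These were library totals (edgeR adjusted p = 0.0530), mouse-named rows only (0.0538), the replicate number as a block (0.0677) and R libraries alone (0.1145).

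let-7b had 300, 256 and 105 CPM in TESTIS-R and 370 and 116 CPM in TESTIS-NR. The epididymal levels were 677, 757 and 441 CPM in CAPUT-R, 416 and 420 CPM in CAPUT-NR, 565, 548 and 567 CPM in CAUDA-R, and 837, 669 and 663 CPM in CAUDA-NR. All 5 testis libraries lay below all 11 epididymal ones. The log2 difference was -1.80 ± 0.47 (SE; edgeR adjusted p = 0.0162) against caput and -1.63 ± 0.38 (adjusted p = 0.00712) against cauda.

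let-7d, whose mouse gene lies with those of let-7a and let-7f, is scarce, so its counts are given. TESTIS-R libraries had 10, 5 and 10 counts (3.64, 1.04 and 4.62 CPM) and TESTIS-NR libraries 22 and 24 counts (5.62 and 6.76 CPM). Levels were 15.1, 19.5 and 12.3 CPM in CAPUT-R, 15.7 and 11.8 CPM in CAPUT-NR, 14.9, 9.06 and 13.9 CPM in CAUDA-R and 11.8, 11.6 and 12.6 CPM in CAUDA-NR. Here too every testis library was below every epididymal library, and let-7d had the largest log2 difference of the 9 members in testis against caput, -2.47 ± 0.56 (SE; edgeR adjusted p = 0.00793), and in testis against cauda, -1.76 ± 0.47 (adjusted p = 0.0150). The call against cauda was lost with the replicate block (edgeR adjusted p = 0.0587) and in NR libraries alone (adjusted p = 0.137). let-7b and let-7d were the 2 members whose groups did not overlap in CPM in either comparison; 11.5% of all miRNAs tested were so separated, and lower, in testis against caput and 15.7% in testis against cauda.

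let-7a had 687, 585 and 368 CPM in TESTIS-R, 351 and 196 CPM in TESTIS-NR, and 438 to 949 CPM in the 11 epididymal libraries, so that the 2 highest testis libraries overlapped with both segments. Its log2 differences were -1.02 ± 0.28 (SE; edgeR adjusted p = 0.0189) against caput and -0.89 ± 0.30 (adjusted p = 0.0422) against cauda. The calls were kept under 12 of 20 alternatives against caput and 7 of 21 against cauda; against caput the difference was -0.46 (adjusted p = 0.234) with library totals.

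let-7c, let-7e and miR-98 did not pass the threshold in edgeR with TMM sizes. Against caput, their log2 differences were -1.02 ± 0.40 (SE) for let-7c, -1.26 ± 0.44 for let-7e and -0.99 ± 0.74 for miR-98, with edgeR adjusted p of 0.0730, 0.0514 and 0.315. Against cauda, the differences were -0.70 ± 0.38 (SE), -0.38 ± 0.38 and -0.55 ± 0.72 in the same order. There the edgeR adjusted p were 0.163, 0.448 and 0.577. let-7c and let-7e were called lower than in caput by DESeq2 (adjusted p = 0.0373 and 0.00661), and by edgeR with mouse-named rows, averaged columns kept, all libraries in 1 fit or the replicate block, or without TESTIS-NR 1. let-7e was also called with DESeq2 size factors and in R libraries. miR-98 was the scarcest member in 14 of 16 libraries, with let-7d below it in TESTIS-R 1 and TESTIS-R 2. It was at 0.282 to 11.3 CPM in testis. Its lowest value, in TESTIS-NR 3, was a single count, under the 3 counts taken as the limit of detection.

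let-7i and let-7g were the members nearest 0 in testis against caput and in testis against cauda. let-7i had 1296, 1253 and 460 CPM in TESTIS-R and 1233 and 546 CPM in TESTIS-NR, against 613 to 929 CPM in caput and 842 to 1175 CPM in cauda libraries. Testis libraries lay both above and below each segment, and the log2 difference was -0.13 ± 0.36 (SE; edgeR adjusted p = 0.785) against caput and -0.19 ± 0.33 (adjusted p = 0.672) against cauda. Its sign turned with library totals in place of TMM sizes against caput (0.44).

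let-7g had 92.1, 57.5 and 48.0 CPM in TESTIS-R and 40.6 and 21.4 CPM in TESTIS-NR, against 17.4 to 41.3 CPM in caput and 25.9 to 47.5 CPM in cauda. All 3 TESTIS-R libraries were above every epididymal library, and the TESTIS-NR libraries lay among them. The log2 difference was 0.39 ± 0.36 (SE; edgeR adjusted p = 0.423) against caput and 0.17 ± 0.35 (adjusted p = 0.729) against cauda.

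**Figure D2:**
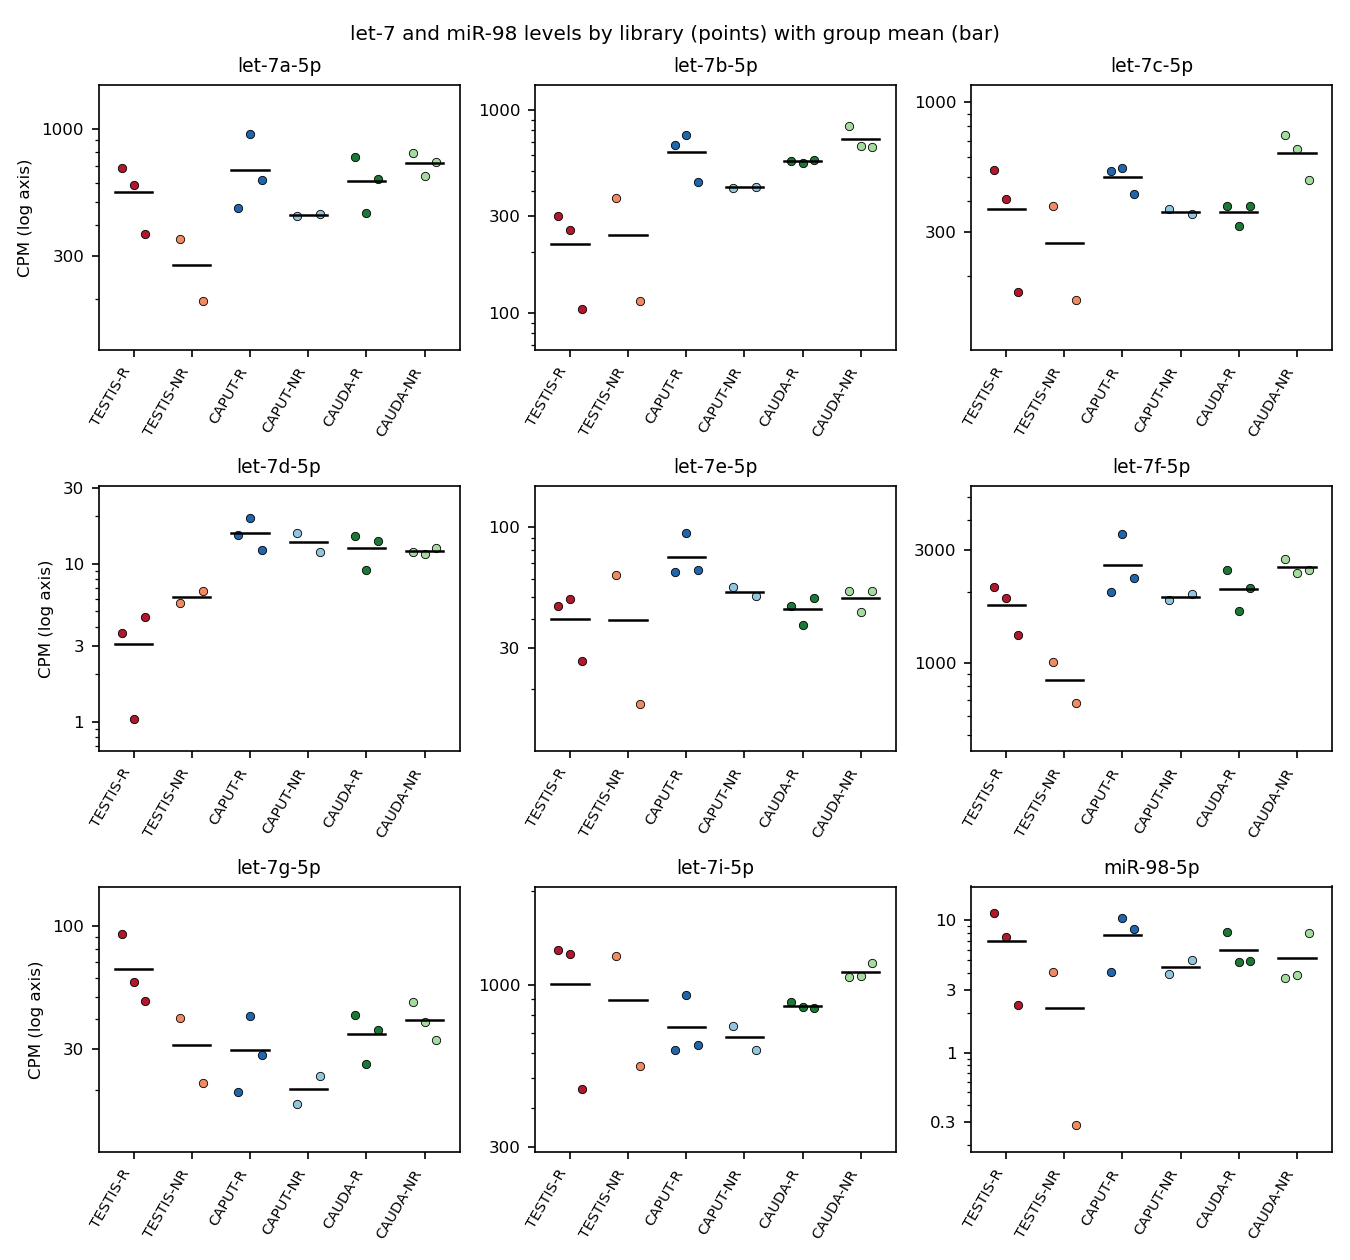
Level of each member in CPM of the library total (vertical log axes, each panel with its own range) in the 6 groups (horizontal axis); points are libraries and bars group means. let-7b and let-7d lie lower in all 5 testis libraries than in the 11 epididymal ones, whereas let-7g is highest in the 3 TESTIS-R libraries.

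**Figure D3:**
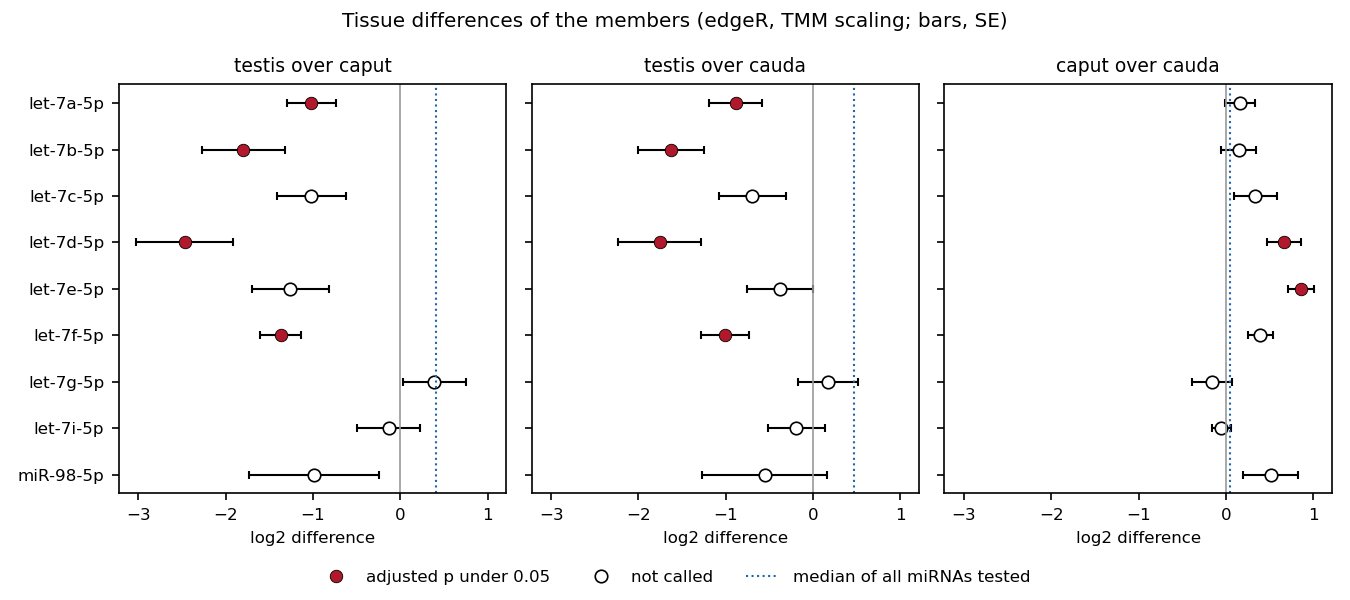
Log2 differences of the 9 members (points, with SE) in testis over caput, testis over cauda and caput over cauda, from edgeR with TMM scaling; filled points passed an adjusted p of 0.05 and dotted lines mark the median of all miRNAs tested. let-7a, let-7b, let-7d and let-7f lie below 0 and are filled in both testis panels, and let-7d and let-7e are filled on the positive side in caput over cauda.

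Taken season by season, the testis differences had different calls. In R libraries alone, 5 of 9 members (let-7a, let-7b, let-7d, let-7e and let-7f) were called lower in testis than in caput, where 26.3% of 467 miRNAs were called lower. In NR libraries, with 2 libraries a tissue, 0 of 9 members and 0 of 433 miRNAs were called by edgeR, 142 of them at an unadjusted p under 0.05. The log2 differences in NR libraries were -1.50 ± 0.49 (SE) for let-7f, -1.54 ± 0.56 for let-7d and -1.06 ± 0.82 for let-7b. In testis against cauda, R libraries gave calls for let-7b and let-7d (23.9% of 476 miRNAs called lower) and NR libraries for let-7a and let-7f (17.9% of 481 called lower). Whether the seasons differ in these tissue differences was tested directly, and 0 of 9 members passed for testis with caput (smallest edgeR adjusted p = 0.906) or for testis with cauda (smallest adjusted p = 0.518). Over all miRNAs 0 were called in both (0%), with 27 and 62 under 0.05 before adjustment; DESeq2 called 12 and 21 miRNAs and 0 members.

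Leaving out single testis libraries moved the count against caput. Without TESTIS-NR 1, the library low in germ cell miRNAs, 6 of 9 members were called lower than in caput; without TESTIS-NR 3 there were 3 (let-7b, let-7d and let-7f). let-7b, let-7d and let-7f were called lower than in caput in 19 of 20 alternatives each, the exception being NR libraries alone.

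Between the epididymal segments, let-7e and let-7d were higher in caput than in cauda. They were 2 of 9 members, and 12.7% of 620 miRNAs tested were called higher in caput and 8.55% lower. The members' median log2 difference was 0.34, beside 0.05 over all miRNAs. In CPM, 0 of 9 members were fully separated between the segments, as 5.32% of all miRNAs were on the higher side and 10.5% on the lower. Without the TMM step, the same median was -0.07 and that of all miRNAs -0.34, and 0 members were called. The share of calls that were higher in caput was 59.85% with TMM sizes and 32.8% with library totals.

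let-7e, which in mouse is made from a gene beside those of miR-99b and miR-125a, had 64.1, 94.9 and 65.2 CPM in CAPUT-R and 55.2 and 50.3 CPM in CAPUT-NR. It had 45.7, 37.8 and 49.3 CPM in CAUDA-R and 52.8, 42.9 and 52.8 CPM in CAUDA-NR. Only CAPUT-NR 3 fell within the cauda range. The log2 difference was 0.86 ± 0.15 (SE; edgeR adjusted p = 0.00242), and it was 1.06 ± 0.22 in R libraries (adjusted p = 0.0256; 9.92% of 484 miRNAs called higher) and 0.61 ± 0.18 in NR libraries (adjusted p = 0.0999; 6.30% of 476 called higher). As a share of the family, let-7e held 1.30% to 1.46% in caput and 0.777% to 1.08% in cauda libraries, which do not overlap.

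let-7d reached 0.66 ± 0.19 (SE; edgeR adjusted p = 0.0358) with overlapping CPM levels, and its call was kept under 6 of 21 alternatives. It was lost on leaving out any 1 of 9 of the 11 libraries, with adjusted p between 0.0551 and 0.136. let-7f was at 0.39 ± 0.14 (adjusted p = 0.0796), let-7a at 0.17 ± 0.17, let-7b at 0.15 ± 0.20, let-7c at 0.34 ± 0.25 and miR-98 at 0.51 ± 0.32 (SE). let-7g and let-7i were at -0.16 ± 0.23 and -0.05 ± 0.11 (SE). Muscle miRNAs moved with this comparison, with 2 of 2 smooth muscle and 4 of 4 striated muscle miRNAs called lower in caput, and 5 of 5 epithelial miRNAs were called higher in caput; their part in the let-7 differences was not tested.

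The miRNAs whose genes lie beside let-7 genes in mouse were followed as a list of 5, namely miR-99a, miR-99b, miR-100, miR-125a and miR-125b. Of these, 4 of 5 were called higher in caput than in cauda, and their median log2 difference was 0.91. miR-99b, the neighbour of let-7e, had 1540, 1482 and 1420 CPM in CAPUT-R and 660 and 1113 CPM in CAPUT-NR, against 610, 700 and 734 CPM in CAUDA-R and 433, 294 and 580 CPM in CAUDA-NR, with only CAPUT-NR 1 within the cauda range. Its log2 difference was 1.51 ± 0.20 (SE; edgeR adjusted p = 0.000588), and that of miR-125a was 1.26 ± 0.13 (adjusted p = 0.000168). miR-99a, the neighbour of let-7c in mouse, was at 0.91 ± 0.15 (adjusted p = 0.00189), miR-125b at 0.54 ± 0.13 (adjusted p = 0.0170) and miR-100 at -0.30 ± 0.13 (adjusted p = 0.145).

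The neighbours were far from equal to the let-7 members in level. miR-125b was at 68623 CPM on average in CAUDA-NR and miR-99b at 435 CPM, where let-7e was at 42.9 to 52.8 CPM. In testis against caput, 4 of 5 neighbours were called lower, miR-125a with the largest difference (-1.94 ± 0.18, SE; edgeR adjusted p = 0.000175), while miR-100 was at 0.33 ± 0.24. In testis against cauda, miR-125a (-0.70 ± 0.18, SE) and miR-125b (-0.85 ± 0.13) were called lower, and miR-99b was at 0.29 ± 0.25.

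**Figure D4:**
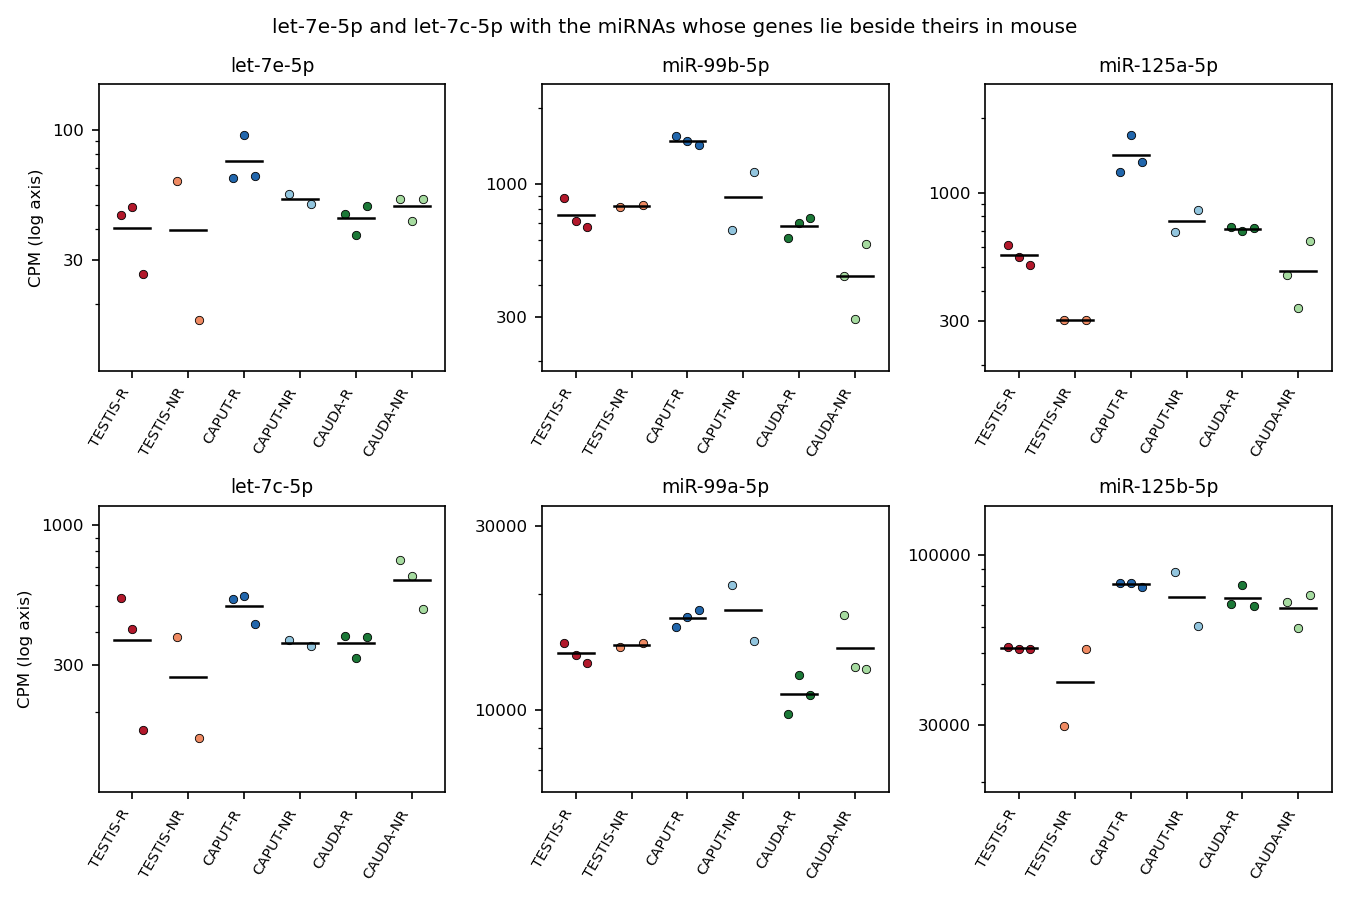
Levels in CPM (vertical log axes, each panel with its own range) of let-7e with miR-99b and miR-125a, and of let-7c with miR-99a and miR-125b, in the 6 groups (horizontal axis); points are libraries and bars group means. let-7e, miR-99b and miR-125a are highest in the 3 CAPUT-R libraries, whereas let-7c is highest on average in CAUDA-NR.

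Between seasons, 0 of 9 members were called in any tissue. In TESTIS-R against TESTIS-NR edgeR called 0 of 496 miRNAs (0%), of which 36 were under 0.05 before adjustment; 24 miRNAs and 0 members were called by DESeq2. In CAPUT-R against CAPUT-NR edgeR called 0 of 534 (0%), of which 24 were under 0.05 before adjustment; by DESeq2 it was 15 miRNAs and 0 members. In CAUDA-R against CAUDA-NR edgeR called 14 of 455 (3.08%), and 75 were under 0.05 before adjustment; by DESeq2 it was 53 miRNAs, let-7c among them. The edgeR count in the cauda lay between 0 and 24 when 1 library was left out, namely 24 when that was CAUDA-NR 3, 4 for CAUDA-R 1, 1 for CAUDA-R 2 and 0 for each of CAUDA-R 3, CAUDA-NR 1 and CAUDA-NR 2.

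In the testis, let-7f was on average 1759 ± 396 CPM in TESTIS-R (SD, n = 3) and 850 ± 235 CPM in TESTIS-NR (SD, n = 2). The libraries did not overlap, and the log2 change was 1.04 ± 0.34 (SE; unadjusted p = 0.0282, adjusted p = 0.537, edgeR). let-7a and let-7g also had all 3 TESTIS-R libraries above both TESTIS-NR libraries, with log2 changes of 0.99 ± 0.45 and 1.08 ± 0.56 (SE). So separated and higher were 19.2% of all miRNAs tested. let-7d was separated in the other direction (-1.03 ± 1.11, SE), as were 9.88% of miRNAs. Beside these values, the 4 striated muscle miRNAs summed to 93.1 to 101.6 CPM in TESTIS-R and 163 to 1052 CPM in TESTIS-NR (median log2 change -3.35, 0 of 4 called), and the germ cell list had a median log2 change of 1.29 (0 of 3 tested were called); their part was not tested. let-7b, let-7c, let-7e, let-7i and miR-98 overlapped, and the sign of the change in let-7b, let-7c, let-7e and let-7i depended on which library was left out.

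In the caput, all 9 members had positive log2 changes, from 0.02 for let-7i to 0.65 for miR-98, with a median of 0.42, beside 0.10 over all miRNAs tested. let-7a, let-7b, let-7c, let-7e and let-7f had all 3 CAPUT-R libraries above both CAPUT-NR libraries, against 13.7% of all miRNAs. let-7a, for example, had 470, 949 and 614 CPM in CAPUT-R and 438 and 448 CPM in CAPUT-NR, with a log2 change of 0.50 ± 0.22 (SE; edgeR adjusted p = 0.775). In CPM of library totals, CAPUT-R 2 was the highest caput library for 9 of 9 members, and the share over all miRNAs was not counted. TMM factors over all 16 libraries were 0.595 for CAPUT-R 1 and 1.02 for CAPUT-R 2, so that scale raises CAPUT-R 1 against CAPUT-R 2. The members' median change was 0.36 without CAPUT-R 2, 0.32 without CAPUT-R 1 and 0.30 without CAPUT-NR 3. It was 0.51 without CAPUT-R 3 or CAPUT-NR 1. Medians of the marker lists ran from -0.39 (leukocytes) to 0.78 (erythrocytes), with 0 called, and their part was not tested.

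In the cauda, 7 of 9 members had negative log2 changes and the median was -0.21, beside 0.05 over all miRNAs tested. let-7c had the largest, with 383, 318 and 383 CPM in CAUDA-R against 738, 647 and 487 CPM in CAUDA-NR. The 3 CAUDA-R libraries were all below the 3 CAUDA-NR libraries, and the log2 change was -0.77 ± 0.21 (SE; unadjusted p = 0.0117, adjusted p = 0.166, edgeR). let-7c was called lower by DESeq2 (adjusted p = 0.0101), and by edgeR without CAUDA-NR 3. let-7b and let-7i were likewise separated (-0.33 ± 0.15 and -0.33 ± 0.13, SE), as were 14.3% of all miRNAs tested in that direction. The leukocyte list summed to 2096 to 5375 CPM in CAUDA-R and 3889 to 8919 CPM in CAUDA-NR; its median log2 change was -1.02, with 0 of 6 called, and its part in the let-7 values was not tested. let-7d and miR-98 were the members with positive values, 0.09 ± 0.24 and 0.24 ± 0.40 (SE).

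**Figure D5:**
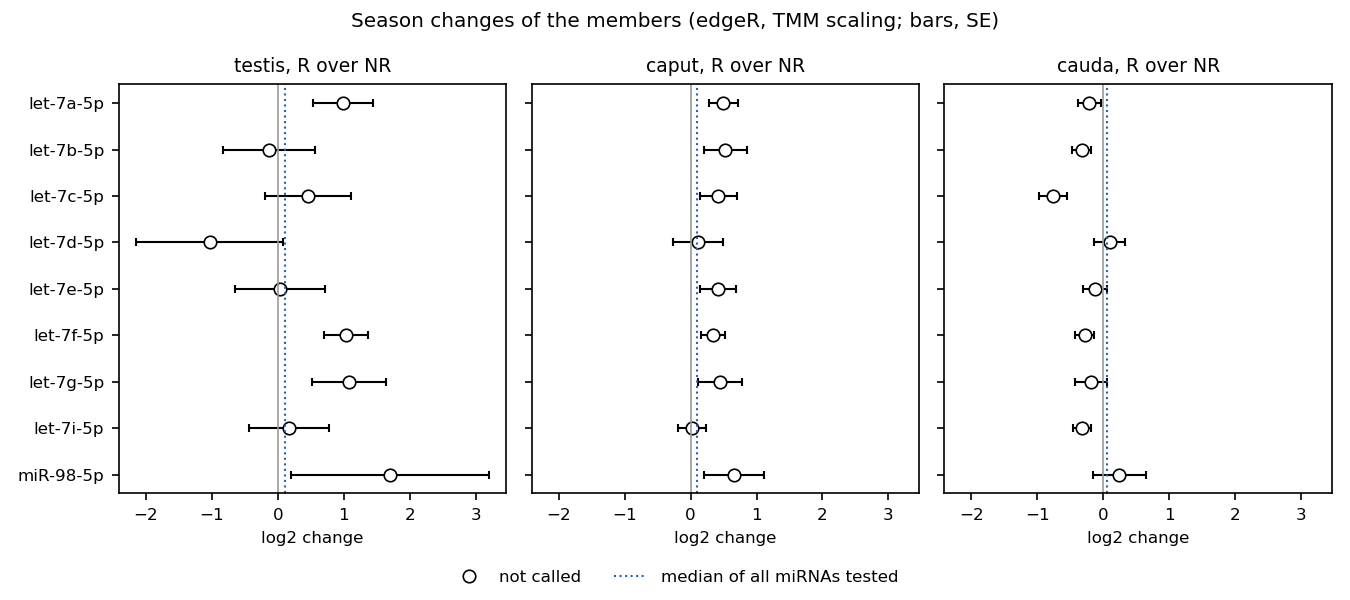
Log2 changes of the 9 members (points, with SE) in R over NR libraries of testis, caput and cauda, from edgeR with TMM scaling; open points did not pass an adjusted p of 0.05 and dotted lines mark the median of all miRNAs tested. All 9 caput values are above 0 and 7 of 9 cauda values are below it.

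The season change in caput minus that in cauda was tested as an interaction of tissue and season. It was positive for all 9 members, with a median of 0.61, beside -0.07 over all 620 miRNAs tested. let-7c had the largest value, 1.17 ± 0.33 (SE; unadjusted p = 0.00629), followed by let-7b at 0.83 ± 0.31 (0.0249), let-7a at 0.70 ± 0.27 (0.0313), let-7g at 0.61 ± 0.42 (0.180) and let-7f at 0.61 ± 0.21 (0.0204). After adjustment over all miRNAs 0 members and 0 of 620 miRNAs (0%) were called by edgeR, of which 35 were under 0.05 before adjustment, and the adjusted p was 0.667 for let-7a, let-7b, let-7c and let-7f. DESeq2 called 1 member, let-7f (adjusted p = 0.0494).

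The other products of the family were scarce. The 14 further rows, the 3p arms with let-7j and let-7k, together reached 32.5 to 100.1 CPM per library. let-7j alone had group means from 20.8 CPM in CAPUT-NR to 31.2 CPM in TESTIS-NR. It was above 2 members, as group means were 3.10 to 15.6 CPM for let-7d and 2.18 to 7.71 CPM for miR-98. Of the 14 rows, 4 passed the filter on low counts in TESTIS-R against TESTIS-NR, and 7 or 8 in the other comparisons of tissues or seasons. let-7i-3p, the passenger arm of let-7i, was called lower in testis than in cauda (edgeR adjusted p = 0.0468), and no other of these rows was called in the comparisons between tissues or seasons. It had 3, 0 and 3 counts in TESTIS-R and 3 and 0 counts in TESTIS-NR, all at or under the limit of 3 counts, against 19 to 69 counts in cauda libraries, so no fold is given.

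miR-202 is known from gonads, and its 3p arm has a seed that shares letters with let-7. Both arms, miR-202-5p and miR-202-3p, were called higher in testis than in either segment. miR-202-5p ranged from 17395 to 69375 CPM in testis, against 9.82 to 383 CPM in caput and 8.88 to 37.3 CPM in cauda libraries. miR-202-5p thus exceeded the whole let-7 family in every testis library and lay under it in every epididymal library. That comparison is of the 5p arm, not of the 3p arm named above for its seed. Both miR-202 arms with miR-196a and miR-196b summed to 18027 to 70168 CPM in testis libraries. Most of that sum was miR-202-5p. miR-202-3p was at 0 counts in 5 libraries, 1 of caput and 4 of cauda. miR-196a and miR-196b, whose seeds also share letters with let-7, were called lower in testis than in cauda (-3.50 ± 0.36 and -4.12 ± 0.37, SE; edgeR), and were at -0.82 ± 0.34 and -0.99 ± 0.37 (SE) in testis against caput, which did not pass.

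Outside the family, the mouse-named miRNAs closest in profile to the summed family over the 16 libraries were miR-191-5p, miR-29b-3p, miR-186-5p, miR-125b-2-3p and miR-125b-5p, out of 129 with a mean of at least 100 CPM. Likeness was the root mean square difference of centred log2(CPM + 1) profiles, 0.30 for miR-191-5p, 0.33 for miR-29b-3p and 0.43 for miR-186-5p. The members themselves ranged from 0.16 for let-7a and 0.19 for let-7f to 0.62 for let-7g and 0.81 for let-7d. let-7d, let-7g, let-7b and miR-98 were farther from the family sum than miR-125b-5p was (0.47). Of these, let-7d, let-7g and miR-98 lay under 100 CPM in every library, and members did not have to meet that limit. Their distances therefore hold more counting error than those of the outside miRNAs. The abundant members are themselves part of the sum, let-7f most of all, so their closeness to it was in part given in advance.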

How the data were processed

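The authors deposited 1 table of raw miRNA counts per library. Per the submitters' processing notes, featureCounts and bedtools were used, with no version; not given in the sources used here are the aligner, genome build, mismatch rule and any molecular identifiers. RefSeq (TupChi_1.0) holds a miRNA gene for 6 of the 9 members. In 2 columns (CAPUT-NR 2 and TESTIS-NR 2), every value is the mean of the other 2 libraries of the group, rounded to a whole count, so they were left out. Counts were tested by the quasi-likelihood test of edgeR (4.0.16, under R 4.3.3), with filterByExpr, TMM sizes and Benjamini-Hochberg adjustment over all miRNAs tested; only the groups compared entered a fit. DESeq2 1.42.0 was an alternative, as were other scalings, filters, a replicate block, single seasons and leaving out each library. The fit was tested on simulated data. CPM use the total of the deposited counts. Counting intervals and the limit of 3 counts (0.203 to 1.38 CPM) cover counting error only. p-values measure the spread between libraries, which may in part be technical. All 9 members were described. The members, the lists of other miRNAs and the tests were chosen with earlier results of these data known; the nearest profiles followed a rule of smallest root mean square difference.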

Additional observations from a re-analysis of the deposited data

Results flagged for a closer look

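The season differences of let-7b and let-7c, none of which passed the edgeR threshold, had opposite signs in caput and cauda. Every CAPUT-R library was above every CAPUT-NR library for both, and every CAUDA-R library was below every CAUDA-NR library. Of all miRNAs tested, 13.7% were so separated and higher in caput, and 14.3% were so separated and lower in cauda. The share with both was not counted. The season change in caput minus that in cauda was 0.83 for let-7b and 1.17 for let-7c on the log2 scale. The interaction test of edgeR did not pass after adjustment over 620 miRNAs (adjusted p = 0.667 for both).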

How the results depend on the processing

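Depth and numbers limit the scarce members most: let-7d had 5 to 24 counts in testis libraries and miR-98 a single count in 1, and groups of 2 or 3 libraries give wide errors. Among the calls that rest least on a setting was let-7b in testis against cauda, kept in 20 of 21 alternatives. let-7b, let-7d and let-7f in testis against caput were each kept in 19 of 20. No called member changed sign under any alternative that was run. The causes of the changes below were not tested.

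The number of members called in testis against caput (4) was 0 in NR libraries alone, 3 with library totals and with no filter, 5 with DESeq2 size factors and in R libraries, 6 with DESeq2, mouse-named rows, averaged columns kept and all libraries in 1 fit, and 3 to 6 when 1 library was left out. In testis against cauda (4) it was 2 with library totals, with mouse-named rows, in R libraries and in NR libraries, and 3 to 4 when 1 library was left out. In caput against cauda (2) it was 0 with library totals, with all libraries in 1 fit and in NR libraries, 1 with no filter and in R libraries, and 1 to 2 when 1 library was left out. In CAUDA-R against CAUDA-NR (0) it was 1 with DESeq2 and 0 to 1 when 1 library was left out, and in the season change of caput minus cauda (0) it was 1 with DESeq2. The number of all miRNAs called moved by over 1.5 times in testis against caput (235) to 0 in NR libraries, in testis against cauda (257) to 161 with the replicate block and 144 in NR libraries, and in caput against cauda (132) to 74 in 1 fit, 76 with the replicate block, 84 in R libraries and 51 in NR libraries. Between seasons it was 0 to 24 in testis, 0 to 15 in caput and 0 to 53 in cauda over these alternatives.

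Same-numbered libraries were compared by how they deviated from their group means. Correlations were -0.042 to 0.28 between tissues (4 of 15 over 0.1) and -0.16 to 0.13 between seasons (1 of 7 over 0.1). Libraries of unlike number were not compared in this way, so shared animals can be neither shown nor excluded. With the replicate number as a block, 6 members were called in testis against caput, 1 in testis against cauda and 1 in caput against cauda. The block turned let-7i to -0.11 in testis and -0.0096 in caput between seasons, and let-7d to -0.056 in the season change of caput minus cauda.

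Other sign changes were in members that were not called. In TESTIS-R against TESTIS-NR, let-7e was at -0.0037 (DESeq2 size factors), -0.0031 (DESeq2), -0.0057 (averaged columns kept) and -0.30 (1 fit), and let-7i at -0.13 (1 fit). In testis against caput, let-7i was at 0.44 (library totals), 0.027 (no filter) and 0.093 (NR libraries). In testis against cauda, let-7i was at 0.18 (mouse-named rows) and 0.16 (averaged columns kept), and let-7g at -0.62 (NR libraries). In caput against cauda, let-7a, let-7b and let-7c were at -0.22, -0.26 and -0.071 (library totals) and at -0.18, -0.28 and -0.29 (NR libraries), let-7i at 0.0062 (mouse-named rows) and 0.069 (R libraries), and let-7g at 0.070 (R libraries). The season change of caput minus cauda in let-7d was -0.044 (averaged columns kept).

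When 1 library was left out, signs turned as follows. In testis between seasons, let-7b ranged from -0.71 to 0.74, let-7c from -0.00030 to 1.02, let-7e from -0.58 to 1.04 and let-7i from -0.26 to 0.69. In caput between seasons, let-7d ranged from -0.17 to 0.39 and let-7i from -0.20 to 0.21, and in cauda miR-98 from -0.016 to 0.61. Against caput, let-7i in testis ranged from -0.49 to 0.22, and against cauda let-7g in testis from -0.12 to 0.34. In caput against cauda, let-7b ranged from -0.063 to 0.29 and let-7i from -0.12 to 0.060. In the season change of caput minus cauda, let-7d ranged from -0.18 to 0.14 and miR-98 from -0.048 to 0.68.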
